A study of Danio rerio with 2 samples.

Results

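Tubulins build the microtubule tracks of the cell, and kinesins and dynein walk along them carrying cargo. Most kinesins move toward the plus end of the microtubule, and cytoplasmic dynein moves toward the minus end. In oligodendrocytes, the glia that myelinate axons of the brain and spinal cord, these motors carry myelin basic protein mRNA out to the sheath, and in most cells they also move lysosomes between the cell centre and the periphery. The genes described here are 74 of the 34326 rows of the authors' deposited table, taken by symbol as alpha, beta and gamma tubulins, kinesins, cytoplasmic dynein chains and dynein light chains with a level above 0. No symbol that matched was listed at level 0, and the lowest level was 0.0228, for tubb1. Of the 74 genes, 17 encode tubulins, 13 encode dynein chains, and 44 carry a kinesin symbol, of which kif1bp encodes a kinesin binding protein and no motor.

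The cells came from larvae 5 days after fertilization of the TL strain, either rraga mutant or wild type, and were sorted by flow cytometry for GFP under the Cldnk promoter. Each genotype has 1 record, and the labels say that it merges 2 independent replicates. RagA, the product of rraga, is a small GTPase that recruits mTORC1 to the lysosome, and the series title places the lysosomal transcription factor TFEB downstream of the Rag-Ragulator complex. The allele is not named in the sources used here. The table gives 1 fold per gene, titled as mutant against control, and no value per replicate or per genotype, and the title alone sets the sign of a fold. The level is whichever genotype mean was higher, in a unit that the table does not name. Whether it is scaled by transcript length is not stated, so levels are used here to sort genes by precision and not to rank transcripts by abundance.

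Oligodendrocyte markers were present in the sorted cells, with 15 of 17 at level 10 or more. Markers of exocrine pancreas, liver and gut were present too, with 15 of 15 at that level, as were those of skeletal muscle (8 of 10), erythrocytes (6 of 9), epidermis (5 of 9), rods (5 of 10), neurons (8 of 19), cycling cells (6 of 15) and microglia and macrophages (5 of 13). None of 10 markers of multiciliated cells reached level 10. In these bulk samples, fewer cells of a type and less RNA per cell cannot be told apart.

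No tubulin, kinesin or dynein gene changed between rraga mutant and wild type cells by the authors' FDR p under 0.05, a threshold that 0.221% of the 25757 genes with a p passed. The folds were higher in the mutant for 38 genes and lower for 36, where 51% of all genes with a fold were higher. Their median log2 fold was 0.05, against 0.02 over all genes with a fold. At the authors' unadjusted p under 0.05, 3 genes were higher (kif2c, kif1c and kif14) and 2 were lower (kif17 and kif6). These 5 genes are 6.76% of the 74, and 9.66% of all genes passed that p, with 4.43% higher and 5.24% lower. Each of the 5 had a level under 10, and the authors' test is not named in the sources used here. The listed regions of 26 of the 74 genes overlap another listed gene, and whether reads were counted by strand is not given, so folds of such genes may share reads.

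**Figure D1:**
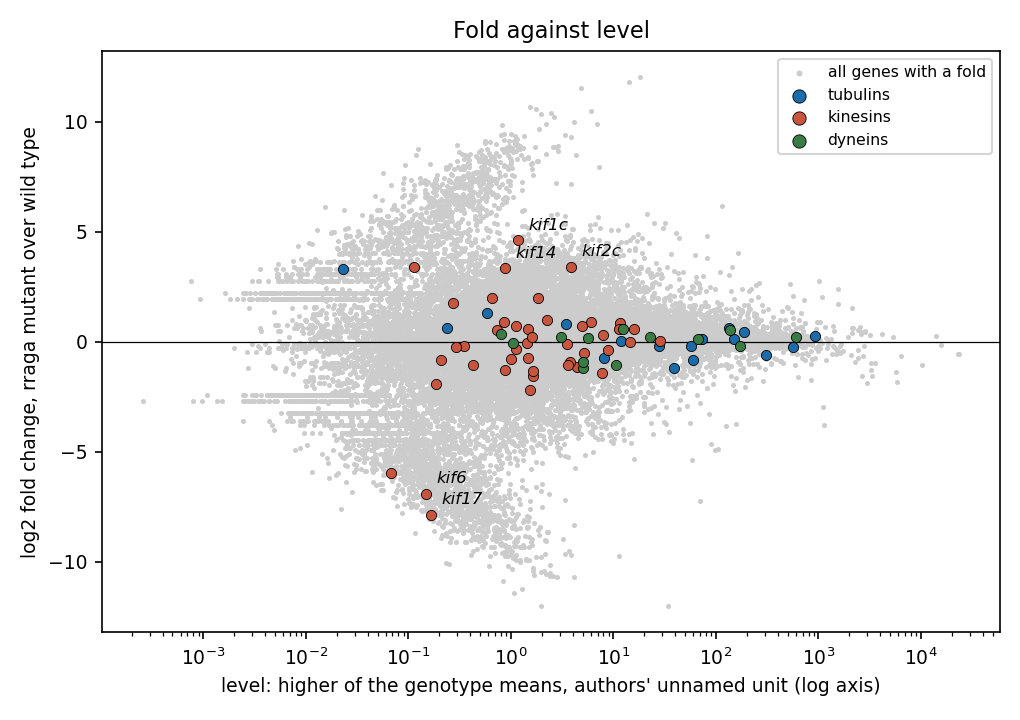
The level of each gene (horizontal, log axis, authors' unnamed unit) against its log2 fold change, rraga mutant over wild type (vertical). Grey points are the 25757 genes with a fold, coloured points are the 74 tubulin, kinesin and dynein genes, and the 5 named genes have an unadjusted p under 0.05. The coloured points lie close to 0 at high level and spread out at low level.

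Among the 24 of these genes with a level of 10 or more, the folds were small. Here 15 were higher and 9 lower, so 62.5% were higher, and 62.3% of the 5792 genes of such a level were higher too. The median log2 fold was 0.13, against 0.15 for all genes of that level. Of the 24 genes, 10 lay above this shift of 0.15. The absolute log2 fold was under 1 in 22 of the 24 genes (91.7%), against 84.6% of all genes of that level, and under 0.5 in 14 genes (58.3%), against 62.5%. The smallest unadjusted p among the 24 was 0.0923, so none passed a p of 0.05, which 8.65% of all genes of that level passed.

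A standard error implied by each fold and its p, under the assumption of a normal test, shows what these values can and cannot tell. Its median over the 24 genes was 0.56 on the log2 scale, which makes a 95% interval of 1.1 to either side, or 2.15-fold. The interval spanned 0 for each of the 24. The SD of the log2 folds across the 24 genes was 0.53, about as wide as the error of a single gene. For a gene with the median error of these 24, an observed difference under about 2.15-fold would not pass the unadjusted p threshold. The authors' FDR p is stricter, so a larger difference would be needed to pass it. A true difference above 2.15-fold can therefore be missed as well. Over all 74 genes the median implied error was wider, at 1.03.

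**Figure D2:**
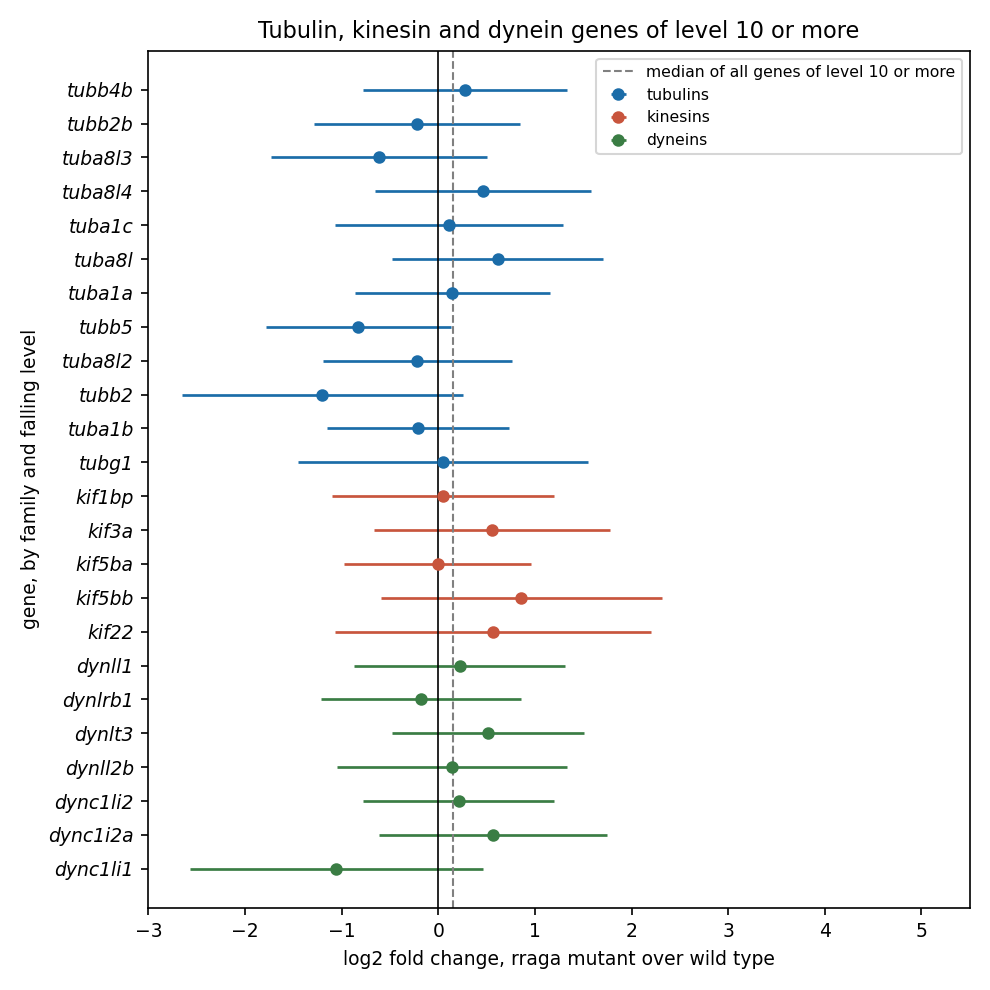
Log2 fold change, rraga mutant over wild type, of the 24 tubulin, kinesin and dynein genes of level 10 or more, ordered by family and level. Points are the authors' deposited folds, bars are 95% intervals implied by the fold and its p, and the dashed line is the median of all genes of that level (0.15). Every bar crosses 0, and tubb2 and dync1li1 lie lowest.

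Tubulins form the track as dimers of an alpha and a beta chain. Of the 10 alpha tubulin genes, 6 had a higher value in the mutant, and the median log2 fold was 0.13. tuba8l3 had a log2 fold of -0.62 (p = 0.279) at level 309, per the authors' deposited table. tuba8l4 had 0.46 (p = 0.420) and tuba8l had 0.62 (p = 0.268), per the authors' deposited table. These tuba8-like paralogs lay on both sides of 0, and none of the alpha tubulins had an unadjusted p under 0.05.

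tuba1a, tuba1b and tuba1c lie together on chromosome 23 (build GRCz11), tuba1c at 35591854 to 35595371 on the minus strand and tuba1a at 35609927 to 35612595 on the plus strand. tuba1b spans 35609996 to 35619477 on the same strand as tuba1a, and the 2 genes share 2600 bases of their listed regions, so how reads were divided between them is uncertain. Per the authors' deposited table, their log2 folds were 0.14 for tuba1a, -0.21 for tuba1b and 0.11 for tuba1c, with unadjusted p of 0.779, 0.663 and 0.855. All 3 folds were smaller than their implied errors. Reads of tubulin genes in general may be shared among close copies, since their coding sequences are similar.

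Beta tubulin carries the exchangeable GTP of the dimer. tubb4b had the highest level of the 74 genes, 934, and a log2 fold of 0.28 (95% interval -0.78 to 1.33, p = 0.610), per the authors' deposited table. tubb2b followed with a level of 568 and a log2 fold of -0.22 (p = 0.689) there. The lower values were those of tubb5, at -0.83 (interval -1.79 to 0.14, p = 0.0923, FDR adjusted p = 0.771), and tubb2, at -1.20 (p = 0.106, FDR adjusted p = 0.801), per the authors' deposited table. tubb5 is also on the list of neuronal markers, and it had the smallest p of any of the 24 genes of level 10 or more. tubb4b and the kinesin-2 gene kif3a lie on chromosome 14, as rraga does, 8.18 and 9.88 Mb away from it.

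Gamma tubulin sits at the centrosome and other nucleation sites and starts new microtubules. tubg1 had a log2 fold of 0.05 (interval -1.45 to 1.55) at level 11.9, per the authors' deposited table. The partners that hold gamma tubulin in its ring complex were looked at after their values had been seen, together with the kinesin-2 accessory subunit. In the authors' deposited table, tubgcp5 had a log2 fold of -2.36 (p = 0.0283, FDR adjusted p = 0.662) and tubgcp3 had -1.28 (p = 0.174). Of the 5 tubgcp genes and 2 kifap3 genes, only tubgcp2 was higher, where 51% of all genes with a fold were higher. Because the genes were picked with their values known, this count cannot show a tendency of the group. None passed the authors' adjusted threshold, and only 1 of the 7, kifap3b, had a level of 10 or more.

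Kinesin-1, built from kif5 heavy chains, is a plus-end motor for organelles and mRNA. kif5ba had a log2 fold of -0.01 (interval -0.98 to 0.97) and its copy kif5bb 0.86 (interval -0.59 to 2.31), per the authors' deposited table. These are the widely expressed heavy chains in mammals. The kif5a and kif5c genes, which are mainly neuronal in mammals, were at low level. kif5aa had a log2 fold of -1.13 (p = 0.202) at level 4.39, per the authors' deposited table. kif5ab had 3.40 (p = 0.0902) at level 0.113 and kif5c had 2.0 (p = 0.185) at level 1.82, per the authors' deposited table. kif5aa and kif5ab were the 1 pair of 11 duplicated pairs whose folds lay apart by over 1.96 combined implied errors (difference -4.53, ratio 2.06), and kif5ab has the lowest level of the 5 heavy chains. The 3 kinesin light chain genes, which tether cargo to kinesin-1, were all higher and none passed the unadjusted p, with klc4 at 0.20 and klc1a at 1.24, per the authors' deposited table.

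Kinesin-2 motors serve intraflagellar transport and organelle transport. kif3a had a log2 fold of 0.56 (p = 0.369) and its partner kif3b 0.98 (p = 0.338), per the authors' deposited table. The alternative partner genes kif3ca and kif3cb, which are enriched in neurons in mammals, had -1.40 (p = 0.278) and -1.55 (p = 0.376), per the authors' deposited table. The accessory subunit gene kifap3b, chosen after its value was seen, had -2.16 (p = 0.0126, FDR adjusted p = 0.565) at level 10.6, per the authors' deposited table, and its copy kifap3a had -0.36 there. kif17, a homodimeric kinesin-2 found in photoreceptor outer segments of zebrafish, had -7.85 (p = 0.0284, FDR adjusted p = 0.662) at level 0.166, per the authors' deposited table. Its implied error was 3.58 on the log2 scale, so its size is poorly known. Rod markers had lower values in 9 of 10 cases, from -5.38 to 2.33 with a median log2 fold of -2.35. Among them gnat1, rho, sagb and gngt1 fell by the authors' FDR p, none was listed at 0, and their part in the value of kif17 was not tested.

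Kinesin-3 motors carry vesicles, mitochondria and, in the case of zebrafish kif1b, are needed for myelin basic protein mRNA to reach the processes of oligodendrocytes. kif1b had a log2 fold of -0.53 (interval -1.71 to 0.65, p = 0.379) at level 5.14, per the authors' deposited table, on chromosome 23 at 29469645 to 29579132. The cargo mRNA genes mbpa and mbpb had log2 folds of 0.23 and 0.18 in the same deposited table of the authors. Neither the motor gene nor its cargo genes differed from 0 beyond the implied error. The paralog kif1ab had 0.30 (p = 0.633) and kif1aa -0.74 (p = 0.477), per the authors' deposited table. The listed region of kif1aa, at level 1.46, lies wholly within zgc:103559 on the other strand. That gene had -0.49 at level 62.3, so kif1aa may share its reads. kif1bp, whose protein binds a subset of kinesins, had 0.05 (interval -1.10 to 1.20) at level 28.2 there. kif1c, on chromosome 23 at 44851096 to 44860798, had the highest fold of the 74 genes, 4.61 (p = 0.0184, FDR adjusted p = 0.609), at level 1.16, per the authors' deposited table. The whole of kif1c lies within camta2 on the other strand, so reads of the pair cannot be told apart without strand. camta2 had a log2 fold of 0.61 at level 1.56, per the authors' deposited table. A second row, named KIF1C in capitals and so outside the 74, lies on chromosome 5 and had -1.08 (p = 0.541) at level 0.505, per the authors' deposited table.

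Several kinesins work in the mitotic spindle and in cytokinesis. Of the 8 genes of kinesin families 5, 6, 8, 10 and 12, 6 were lower and 2 higher, with a median log2 fold of -0.35 and none at an unadjusted p under 0.05. Of all genes with a fold 51% were higher. The count leaves out kif4 and kifc1, which are grouped with other families here and were higher, at 0.51 and 0.89. kif22, a chromosome-arm motor and the only one of them at level 10 or more, had 0.57 (p = 0.494), per the authors' deposited table. kif11, the motor that pushes spindle poles apart, had -0.36 (p = 0.662) and kif15, which works beside it, -2.21 (p = 0.112), per the authors' deposited table. Higher values were those of kif2c, a kinesin-13 that takes apart microtubule ends at the centromere, and kif14, a kinesin-3 of the cytokinetic midbody. kif2c had a log2 fold of 3.40 (interval 0.86 to 5.93, p = 0.00866, FDR adjusted p = 0.524) at level 3.88, per the authors' deposited table, the smallest p of all 74 genes. kif14 had 3.35 (p = 0.0424, FDR adjusted p = 0.685) at level 0.881 there. The 15 markers of cycling cells ranged from -0.92 to 0.62 with a median of -0.39, or 0.10 in the 6 of level 10 or more, and none passed the unadjusted p. Spindle kinesins and cycling markers alike had folds on both sides of 0.

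kifc1 and kifc3, minus-end kinesins of the kinesin-14 family, had log2 folds of 0.89 (p = 0.400) and 0.70 (p = 0.373), per the authors' deposited table. In the kinesin-4 family, kif7, a regulator of Hedgehog signalling at the cilium tip, had -0.93 (p = 0.294) and kif21a -1.05 (p = 0.195), per the authors' deposited table. The remaining 7 kinesin genes had levels under 1, among them kif26ab at -1.27 (p = 0.327) and kif6, a motor of motile cilia, at -6.91 (p = 0.0469, FDR adjusted p = 0.685), per the authors' deposited table. The implied error of kif6 was 3.48, and 6 of these 7 genes were lower. Of all genes with a fold at a level under 1, 44.1% were higher, with a median of -0.33.

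**Figure D3:**
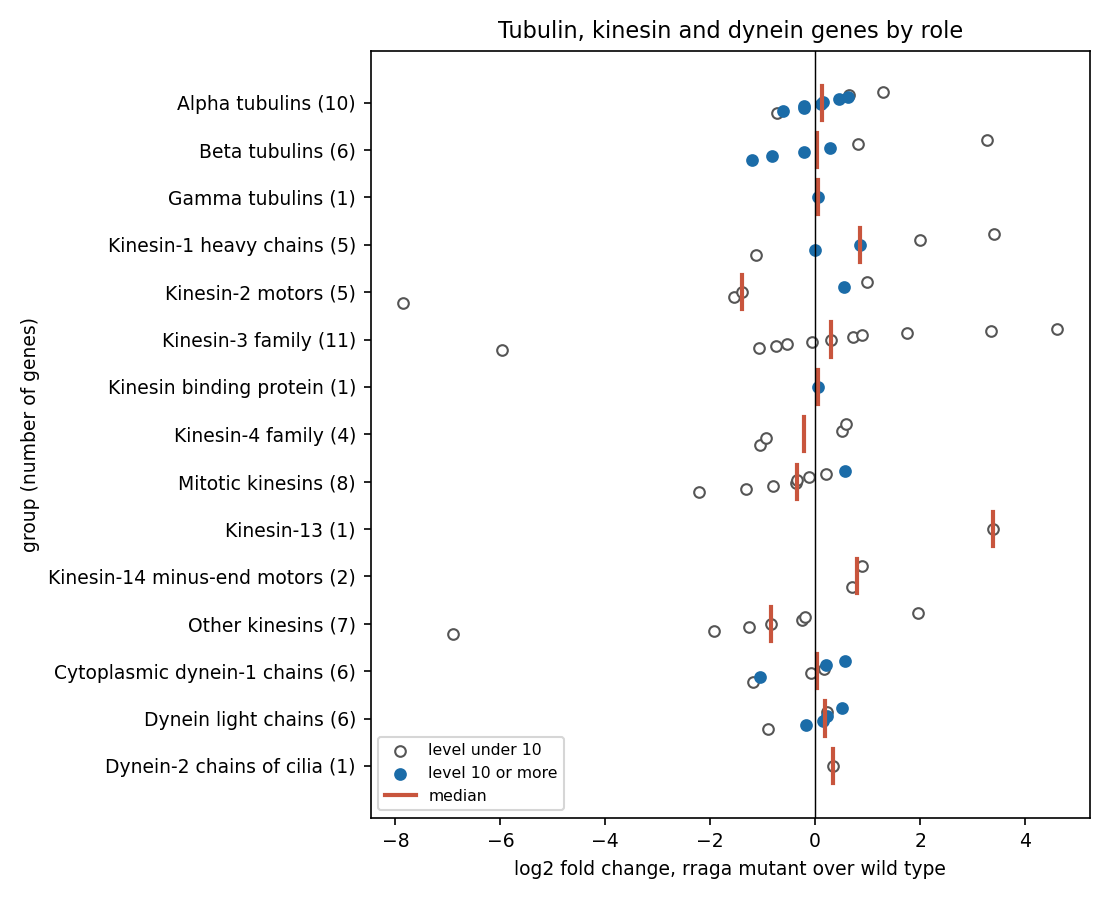
Log2 fold change, rraga mutant over wild type (horizontal), of the 74 genes by role, with the number of genes in brackets. Filled points are genes of level 10 or more, open points those under 10, and the red bar is the group median. The filled points stay between -1.20 and 0.86, and the far points on either side are open.

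Cytoplasmic dynein-1 has a heavy chain motor, intermediate and light intermediate chains that bind cargo and regulators, and light chains. dync1h1, the heavy chain gene, whose loss in zebrafish impairs myelination by Schwann cells, had a log2 fold of -0.07 (interval -1.84 to 1.69) at level 1.04, per the authors' deposited table. Among intermediate chains, dync1i2a had 0.57 (p = 0.345) and dync1i2b 0.16 (p = 0.859), while dync1i1, a mainly neuronal chain in mammals, had -1.18 (p = 0.265), per the authors' deposited table. Of the light intermediate chain genes, dync1li2 had 0.21 (p = 0.676) and dync1li1 -1.05 (interval -2.57 to 0.47, p = 0.174), per the authors' deposited table. Their difference of -1.27, dync1li1 minus dync1li2, was 1.37 times its combined implied error, under the 1.96 that would set them apart.

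The dynein light chains are small proteins, some of which also work outside dynein. dynll1 had a log2 fold of 0.22 (interval -0.87 to 1.31) at level 608, per the authors' deposited table. dynlrb1 had -0.18 (p = 0.736), dynlt3 0.52 (p = 0.307) and dynll2b 0.14 (p = 0.814), per the authors' deposited table. These 4 are the light chain genes of level 10 or more. The SD of their folds was 0.29 on the log2 scale, with no unadjusted p under 0.307. The other light chain genes, dynll2a and dynlt1, had -0.91 (p = 0.503) and 0.23 (p = 0.887) at levels 5.06 and 3.11, per the authors' deposited table. Of dynein-2, the motor that returns cargo to the base of the cilium, dync2li1 had 0.34 (p = 0.884) at level 0.799, per the authors' deposited table.

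Motor genes that are mainly neuronal in mammals and their widely expressed partners were set side by side after the values had been seen, so the contrast is a description. Of 10 neuron-enriched genes (kif1aa, kif1ab, kif3ca, kif3cb, kif5aa, kif5ab, kif5c, kif17, kif21b and dync1i1) 6 were lower, with a median log2 fold of -0.93 and no level of 10 or more. Of 11 widely expressed partners (kif1b, kif1c, kif3a, kif3b, kif5ba, kif5bb, dync1h1, dync1i2a, dync1i2b, dync1li1 and dync1li2) 7 were higher, with a median of 0.21. A level of 10 or more was reached by 6 of these partners. Over all genes with a fold 51% were higher. That share was 44.1% at a level under 1, 51.7% from 1 to 10 and 62.3% at 10 or more, so the 2 groups also differ in level. The partner list leaves out kif21a, of the same family as kif21b, which was lower at -1.05. It also leaves out the second row KIF1C, lower at -1.08, while kif1c is included. The folds of the groups overlap, from -7.85 to 3.40 in the neuron-enriched genes and from -1.05 to 4.61 in their partners. The 19 neuronal markers, of which 10 were lower, ranged from -4.12 to 3.87 with a median of -0.20, none was listed at 0, and their part in these values was not tested.

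**Figure D4:**
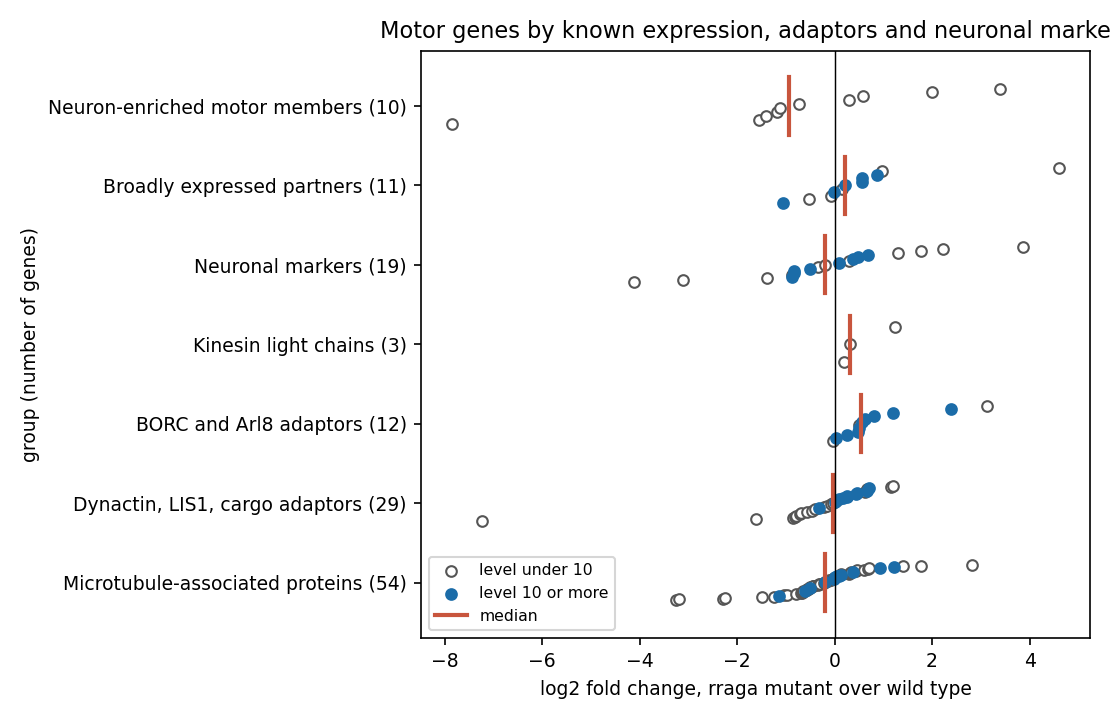
Log2 fold change, rraga mutant over wild type (horizontal), of motor genes by known expression in mammals, neuronal markers and adaptor lists, with the number of genes in brackets. Filled points are genes of level 10 or more, open points those under 10, and the red bar is the median. The neuron-enriched and broadly expressed motors overlap, and all but 1 of the 12 BORC and Arl8 genes lie right of 0.

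Most genes of a list of BORC and Arl8 lysosome motor adaptors had higher values in the mutant. BORC is a complex on the lysosome surface that recruits the small GTPase Arl8, which in turn binds kinesin-1 through the adaptor PLEKHM2, and kinesin-3 directly. Of 12 genes of this list 11 were higher, with a median log2 fold of 0.54, and among the 9 of level 10 or more all were higher, against 62.3% of all genes of that level. Relative to the shift of 0.15, 8 of these 9 lay above it. Markers of some other cells also had higher values. They were higher in 8 of 9 erythrocyte markers (from -1.37 to 8.64, median 1.73, hbae1.3 higher by the authors' FDR p). In epidermis 8 of 9 were higher (lowest -2.14, median 0.54, none past the FDR p). Markers of exocrine pancreas, liver and gut were lower in 13 of 15 cases (median -0.57), and rod markers in 9 of 10 (median -2.35). The 17 oligodendrocyte markers lay on both sides of 0, 9 below and 8 above, and their median log2 fold was -0.02. In the 15 of them that reached level 10 the median was -0.69. By the authors' FDR p mpz was lower and hapln2 higher. None of these markers was listed at 0, and their part in the values of the adaptors was not tested. No gene of the list passed the authors' FDR p, and 2 had an unadjusted p under 0.05, namely the BORC subunit gene kxd1 at 2.40 (p = 0.0112, FDR adjusted p = 0.552) and plekhm2 at 3.12 (p = 0.0182, FDR adjusted p = 0.609), per the authors' deposited table. These are 16.7% of the 12, where 9.66% of all genes passed that p and 4.43% were higher. The genes of highest level, arl8a and bloc1s1, had 0.02 (p = 0.965) and 0.63 (p = 0.436), per the authors' deposited table. borcs5 was the 1 gene with a lower value, at -0.03 there, and whether the list differs from the motor genes was not tested.

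Dynactin, LIS1 and a list of motor cargo adaptors, of dynein and of kinesin, had a median log2 fold of -0.02 over 29 genes. Of these genes 13 were higher, where 51% of all genes with a fold were higher, and 0 passed the authors' FDR p. dctn5 and actr1 of dynactin had 0.70 (p = 0.187) and 0.18 (p = 0.749), per the authors' deposited table. The 10 of these genes at level 10 or more had absolute log2 folds under 1 without exception, like the dynein chains themselves except dync1li1. Only mapk8ip2, a scaffold of neuronal kinesin cargo, had an unadjusted p under 0.05, with -7.22 at level 0.659, per the authors' deposited table. This 1 gene is 3.45% of the 29, against 9.66% of all genes.

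Proteins that bind microtubules or free tubulin had a median of -0.20 over 54 genes, with 19 higher, 35 lower and none past the authors' FDR p. Over all genes with a fold 51% were higher. In the 12 genes of this list that reached level 10 the median was 0.03, against 0.15 for all genes of that level. Among these 12, 7 had a higher value in the mutant, where 62.3% of all genes of that level were higher. Most of the lower values were thus those of genes under level 10. stmn1b, which encodes a stathmin, a tubulin-sequestering protein, had -0.50 (p = 0.358) and tppp2 -1.13 (p = 0.110), per the authors' deposited table. The 3 genes lower at an unadjusted p under 0.05 were map1b (-3.20), map2 (-2.28) and map6a (-2.25), per the authors' deposited table, which encode microtubule stabilizers. Their levels were 1.27, 2.80 and 7.31, and their FDR adjusted p 0.576, 0.674 and 0.685. stmn4l was higher, at 2.82 (p = 0.0334), per the authors' deposited table. These 4 genes are 7.41% of the 54, against 9.66% of all genes. Of the stathmin genes on the list of neuronal markers, stmn2b and stmn2a had 1.78 (p = 0.121) and 0.37 (p = 0.659), per the authors' deposited table, on the other side of 0 from stmn1b. Tubulin folding and modifying enzymes had a median of -0.04 over 34 genes, with tbca and tbcb, the chaperones of beta and alpha tubulin, at -0.11 and 0.56, per the authors' deposited table. None of these enzymes passed the authors' FDR p, while 3 were higher and 2 lower at an unadjusted p under 0.05, or 14.7% of the 34, against 9.66% of all genes. Of these 5, the 1 gene of level 1 or more was lower. This gene, ttl, which puts the terminal tyrosine back on alpha tubulin, had -3.71 (p = 0.0131, FDR adjusted p = 0.569) at level 4.35, per the authors' deposited table.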

How the data were processed

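RNA from sorted Cldnk:GFP cells was sequenced by the authors and the submitters' processing notes name the build GRCz11. Which aligner, counter, normalization and test were used is not given in the sources used here. The deposited table holds, per the file headers, a normalized expression signal (the higher genotype mean, called the level), a log2 fold, a signed fold score and 3 p-values per gene. The table has no counts, so the depth is unknown, and 8569 genes of level 0 have no fold. A gene was called changed at the authors' FDR p under 0.05. The implied standard error is the size of the log2 fold over the normal quantile that its two-sided p corresponds to, and gives a 95% interval. The calculation was checked only on simulated p-values made with the same normal formula. That check cannot show whether the authors' test was normal or how often the intervals hold. It is not known whether the authors' p carries the spread between replicates. Adjustments other than the authors' used the Benjamini-Hochberg method, with pandas 2.3.3 and scipy 1.17.1 in Python 3.11.15.

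The members and gene lists were chosen with earlier results of these data known. Lists were matched by symbol, and were corrected after the values had been seen, by removing kinases, LC3 genes, dcxr and bloc1s6, which do not belong, and setting kif1bp apart from the kinesins. The named genes are, by rule, the 12 members of highest level, members of level 1 or more with an unadjusted p under 0.05, the kif1b, kif5, dync1 and tubg genes, the member of highest level of each role and the 2 genes of highest level of each list. Others were chosen after their values were seen. The alternatives were other adjustments, level minimums, the mean, recentring, leaving out tubulins and adding other names.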

Additional observations from a re-analysis of the deposited data

How the results depend on the processing

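The count of changed genes among the 74 was 0 at each adjustment tried, with 5 at the authors' unadjusted p under 0.05, and 0 also with rows of other names added. Over all genes 57 were called, 20 at the stricter FDR p of 0.01 and 14 by the authors' Bonferroni p. With fewer genes tested, the count was 90 from level 1 upward and 113 from level 10 upward.

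The median log2 fold of the 74 genes was 0.05 and ran from -0.11 (as a mean, or recentred) to 0.13 (level 10 or more), so its sign depends on the setting. Recentring subtracts 0.15, the median of all genes of level 10 or more, also from medians that include genes of lower level. The median of all genes with a fold was 0.02, so the choice of this reference bears on the recentred signs. Role group medians rest on few genes, and several change sign. The kinesin-2 median was -1.40 and became 0.56 at level 10 or more, where kif3a alone is left. The beta tubulin median of 0.03 was -0.22 from level 1 upward, -0.52 from level 10 upward and -0.12 after recentring, and the alpha tubulin median of 0.13 was -0.05 from level 1 upward and -0.03 after recentring. The dynein-1 median of 0.04 was -0.23 as a mean and -0.11 after recentring, and those of tubg1 and kif1bp, 1 gene each, became -0.11 after recentring. Of 15 role groups, the kinesin-4 median was -0.93 from level 1 upward, the mitotic kinesin median 0.57 at level 10 or more, where kif22 alone is left, and the kinesin-14 median 0.64 after recentring. No value could be given for 6 groups at level 10 or more and for 2 at level 1 or more. The BORC and Arl8 median of 0.54 was 0.57 at level 10 or more, a setting chosen after seeing the data. No paired analysis was possible because the table holds no value per replicate, and leaving out a replicate was not possible for the same reason.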

Other observations

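Some tubulin and dynein genes stand in the table under other symbols, found there by capital letters or through the gene name table and examined after the data were seen. Of 12 such rows 11 had a fold, and none had an unadjusted p under 0.05, which 9.66% of all genes passed. Nearest to that threshold was tctex1d1, named DYNLT5 in the gene name table. It had a log2 fold of 7.10 (p = 0.0502, FDR adjusted p = 0.687) at level 0.634, per the authors' deposited table, with an implied error of 3.63. The beta tubulin gene tubb4bl, listed as zgc:153426, had a log2 fold of 0.48 (p = 0.413) at level 60.0, per the authors' deposited table. The alpha tubulin gene tuba8l5, listed under a clone name next to tuba8l3 on chromosome 9, had -1.05 (p = 0.173) at level 7.86, per the authors' deposited table. The dynein-2 intermediate chain genes wdr60 and wdr34 had 0.72 (p = 0.600) and -0.91 (p = 0.533), per the authors' deposited table. KIF2A, a microtubule depolymerase gene, had -0.11 (p = 0.876) and KIF1C, a second row beside kif1c, had -1.08 (p = 0.541), per the authors' deposited table.

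Axonemal dyneins, the relatives that beat motile cilia, and their assembly factors were at low level, with 1 of 24 at 10 or more and 20 with a fold. Their median log2 fold was -0.57, and dnal1 and dnal4b had -0.54 (p = 0.680) and 0.13 (p = 0.910), per the authors' deposited table. Intraflagellar transport genes, whose trains kinesin-2 and dynein-2 pull, had a median of 0.51 over 11 genes with none past the authors' FDR p. At an unadjusted p under 0.05 were 2 genes, 18.2% of the 11, where 9.66% of all genes passed that p and 4.43% were higher. They were ift46 at 3.51 (p = 0.0167, FDR adjusted p = 0.603) and ift80 at 3.47 (p = 0.0101, FDR adjusted p = 0.537), per the authors' deposited table. ift20 and ift74, of higher level, had -0.07 and 0.51, per the authors' deposited table.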
